A study of Mus musculus with 12 samples.

Results

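The RNAs described here are Malat1, Neat1, Gas5, Snhg1, Snhg12, Snhg5, Meg3 and H19, long noncoding RNAs of which several are hosts of small nucleolar RNAs. They were taken by symbol, and all 8 had a row among the 23420 genes counted in 12 mouse kidneys. The kidneys came from adult C57BL/6J males. The 4 control kidneys were removed by nephrectomy, and the other 8 were collected 24 h after a renal ischemia of 20 min; the label text names this ischemia for every kidney, controls included. For the ischemic kidneys title and group field disagree: 4 are titled anaesthetised and have a conscious group field, and are called set A here, and 4 are titled conscious and have an anaesthetised group field, and are called set B. No direction is therefore assigned to anaesthesia. In the study's conscious procedure a clamp was positioned under ketamine and xylazine at least a day before ischemia and closed under brief isoflurane sedation. In the paper's comparison of 20 min ischemia the anaesthetised mice were under ketamine and xylazine, and both groups were kept in a warmed incubator. The paper does not state that these mice gave the sequenced kidneys. All kidneys were collected under ketamine and xylazine. Whether control and ischemic kidneys came from the same animals is not stated, so the p-values measure the spread between these kidneys.

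Long noncoding RNAs are transcripts with no known protein product, and many act in the nucleus. Malat1 is an abundant nuclear RNA of the speckles, bodies rich in splicing factors, and Neat1, transcribed next to it, is the RNA scaffold of the paraspeckles, bodies that hold back RNAs and proteins in stress. Gas5, Snhg1, Snhg12 and Snhg5 carry small nucleolar RNAs (snoRNAs), guides of rRNA modification, in their introns; the spliced host transcript is typically short-lived, being degraded by nonsense-mediated decay when translated. H19 and Meg3 are imprinted RNAs expressed from the maternal chromosome, high in the embryo and low in most adult tissues.

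Malat1 and Neat1 lie close together on the minus strand of chromosome 19. In the GENCODE vM21 annotation of mm10, Malat1 is at chr19:5795690-5802672 and Neat1 at chr19:5824708-5845478, with 22035 bases between them, and each is a single exon in its longest form. The ends of Malat1 and of the long form of Neat1 are not made by polyadenylation but carry genome-encoded tracts of A, which fold back on U-rich motifs into a triple helix; the short form of Neat1 has an ordinary poly(A) signal. The sequences of these ends are shown because the libraries were prepared with a kit for poly(A) mRNA, and these mature ends differ in whether they are polyadenylated. They are given 5′ to 3′ in the letters of the DNA sense strand, with the U-rich motifs and the A-rich tract in capitals for the first 2 and the poly(A) signal in capitals for the third.
Malat1: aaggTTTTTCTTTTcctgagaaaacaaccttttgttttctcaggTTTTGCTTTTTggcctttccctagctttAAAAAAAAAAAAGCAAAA
Neat1 long form: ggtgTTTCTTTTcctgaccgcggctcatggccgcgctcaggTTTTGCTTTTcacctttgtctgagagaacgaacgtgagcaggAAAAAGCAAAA
Neat1 short form: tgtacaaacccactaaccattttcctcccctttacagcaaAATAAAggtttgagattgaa
The first is bases 6602 to 6691 of the 6983 bases of Malat1, the second the last bases, 20678 to 20771, of long Neat1, and the third the last bases, 2945 to 3004, of short Neat1. Over the whole transcripts Malat1 had the longer run of A, with 12 in a row against 7 in long Neat1. The motif TTTTGCTTTT, searched on the transcript strand only, was present in the last 400 bases of 18 of 9101 lincRNA transcripts of the annotation (0.198%). It was read from the last 400 bases of Malat1 itself, and Malat1 and Neat1 were not left out of the search.

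Total counts per kidney lay between 15367342 and 44793350, and 3 counts, taken as the floor for a single kidney, corresponded to 0.0670 to 0.195 CPM (counts scaled to a library of 1e+06); the floor covers counting error only. Set B replicate 4 stood apart from the other kidneys on the second principal component. The 8 RNAs fell into a pair with counts in every kidney, Malat1 and Neat1, and 6 that were at 0 in 6 or more of the 12 kidneys. The counts were tested with edgeR's quasi-likelihood test over 11664 genes that passed its filter on low counts. Of the 8 RNAs 3 passed this filter, Malat1, Neat1 and Gas5. Malat1 was the only one of these 3 that passed an adjusted p of 0.05 against control, in set A, where 22.3% of all genes tested passed, and in set B, where 22.8% passed. Between the sets none of the 3 passed in edgeR (unadjusted p between 0.602 and 0.979), where 0.00857% of all genes tested passed, a single gene of 11664. In DESeq2, which called 27 genes between the sets, none of the 3 passed either.

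Malat1 was more than 2-fold higher in the ischemic kidneys of both sets. Its level in control replicates 1 to 4 was 2443, 2101, 2409 and 2608 CPM. The kidneys of set A were at 4819, 4568, 5518 and 7052 CPM. Those of set B were at 5467, 5681, 4872 and 6005 CPM. Every ischemic kidney was above every control kidney, and the sets overlapped each other. The group means were 2390 ± 211.7 CPM in control and 5489 ± 1117 and 5506 ± 477.2 CPM in sets A and B (SD, n = 4), so the widest spread was in set A, where replicate 4 was highest.

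In edgeR's quasi-likelihood test Malat1 rose by 1.18 on the log2 scale in set A (SE 0.128, adjusted p = 9.07e-07), a 2.26-fold change with a 95% interval of 1.88 to 2.72. In set B the log2 change was also 1.18 (SE 0.128, adjusted p = 9.26e-07), a 2.27-fold change with an interval of 1.88 to 2.73. The exact permutation test of CPM gave a two-sided p of 0.0286 in either comparison, which is the lower limit for groups of 4 and 4. Both comparisons use the same control kidneys. The sets differed by 0.0034 on the log2 scale (SE 0.126, adjusted p = 1.0), with a 95% interval of -0.26 to 0.27, so that a difference of up to about 1.20-fold between them could not be told from none.

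**Figure D1:**
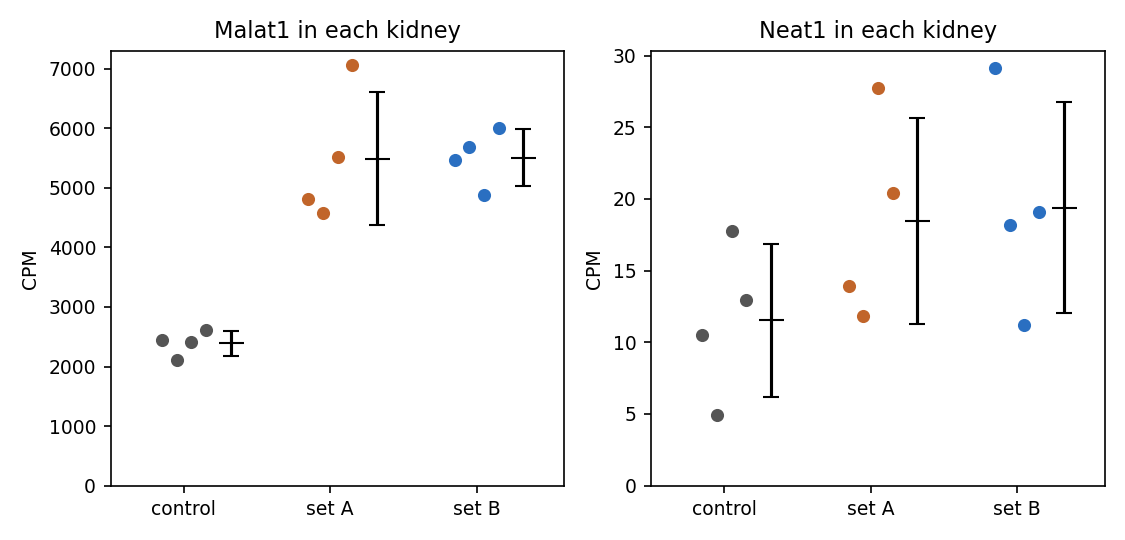
Malat1 (left) and Neat1 (right) in each kidney, in CPM on linear axes that start at 0. Each point is 1 kidney and each bar with a cross line is the group mean ± SD of 4 kidneys. The 8 ischemic kidneys lie between 4568 and 7052 CPM for Malat1, above the highest control at 2608, whereas the groups overlap for Neat1.

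Malat1 was among the most counted genes of the kidney, and more so after ischemia. In control kidneys 0.210% to 0.261% of all counts were Malat1, against 0.457% to 0.705% (set A) and 0.487% to 0.601% (set B). Its rank among all genes was between 32 and 44 in the controls and between 9 and 11 in every ischemic kidney. By the size of its change it was not extreme: 1278 of the 2599 genes called in set A, and 1313 of the 2659 called in set B, had a larger absolute log2 change. Without set B replicate 4 the log2 change of Malat1 in set B was 1.15 (adjusted p = 1.05e-06), and without set A replicate 4 that in set A was 1.004 (adjusted p = 1.95e-06).

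Neat1 was counted in every kidney but with far fewer counts than Malat1, and the groups overlapped. Its level was 10.5, 4.93, 17.8 and 12.9 CPM in control. The kidneys of set A had 13.9, 11.9, 27.8 and 20.4 CPM, and those of set B had 29.1, 18.2, 11.2 and 19.1 CPM. The means were 11.5 ± 5.34, 18.5 ± 7.18 and 19.4 ± 7.38 CPM (SD, n = 4), and the lowest kidney of each ischemic set was below the highest control. The SD was 38.0% to 46.3% of the mean, against 8.67% to 20.3% for Malat1.

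Neat1 did not pass the test in either comparison. The log2 change was 0.65 in set A (SE 0.408, adjusted p = 0.311), with a 95% interval of -0.20 to 1.51, and 0.73 in set B (SE 0.409, adjusted p = 0.240), with an interval of -0.13 to 1.58. These intervals reach from a small fall to a rise of 2.84-fold in set A and 2.997-fold in set B, and so include the change measured for Malat1. The exact permutation p-values were 0.171 and 0.143. Between the sets the log2 difference was 0.07 (interval -0.78 to 0.92).

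Per length, Malat1 had far more counts than Neat1 in all groups, whichever form is taken for Neat1. In CPM per kilobase, Malat1 over its 6983 bases was at 342.3 ± 30.3 in control, 786.1 ± 159.9 in set A and 788.5 ± 68.3 in set B. Neat1 was at 3.84 ± 1.78, 6.16 ± 2.39 and 6.46 ± 2.46 if all its counts came from the short form of 3004 bases, and at 0.555 ± 0.257, 0.890 ± 0.346 and 0.934 ± 0.355 if all came from the long form of 20771 bases. The ratio of the mean per-length levels, Malat1 to Neat1, was thus 89.2 in control with the short form and 616.4 with the long. The row for Neat1 holds a single count per kidney, so its forms cannot be told apart. The libraries were prepared with a kit for poly(A) mRNA, and how fully it captured each form was not measured. The ratios are therefore of counts and not of RNA amounts.

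The proportion of Neat1 to Malat1 was compared as a log2 ratio of CPM, which does not depend on library size. Per 1000 Malat1 counts there were 4.30, 2.35, 7.38 and 4.96 Neat1 counts in control, 2.89, 2.59, 5.03 and 2.89 in set A and 5.33, 3.20, 2.30 and 3.18 in set B. The groups overlapped, and the mean log2 ratio was -7.83 ± 0.685 in control, -8.27 ± 0.432 in set A and -8.23 ± 0.501 in set B (SD, n = 4). The exact two-sided permutation p was 0.371 for set A against control, 0.4 for set B against control and 0.857 between the sets. A difference in the proportion of these neighbouring RNAs was therefore not detectable over this spread.

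**Figure D2:**
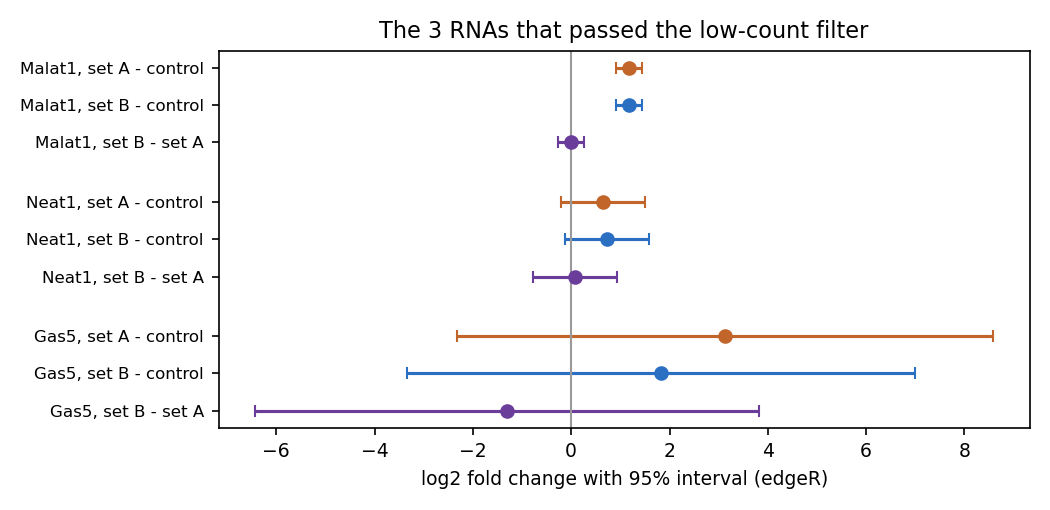
Log2 fold changes from edgeR (points) with 95% intervals (bars) for the 3 RNAs that passed the low-count filter, in each of the 3 comparisons. The intervals of Malat1 lie above 0 in both comparisons with control, those of Neat1 include 0, and those of Gas5 span from -2.32 to 8.58 in set A and from -3.34 to 6.999 in set B.

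Gas5, the growth arrest specific RNA that hosts box C/D snoRNAs, lies at chr1:161034422-161038539 on the plus strand, with 13 exon blocks of 851 bases in sum. It had 1, 0, 0 and 10 counts in control, 14, 0, 48 and 23 in set A and 34, 0, 0 and 0 in set B. It was thus above 3 counts in 1 control kidney, 3 kidneys of set A and 1 of set B, and all groups held a kidney at 0. The log2 change was 3.13 in set A (SE 2.604, adjusted p = 0.491) and 1.83 in set B (SE 2.47, adjusted p = 0.704), and the exact permutation p-values were 0.143 and 1.0. With a kidney left out the log2 change in set A lay between 2.601 (without set A replicate 4) and 5.20 (without control replicate 4). In limma-trend it was 2.03, with the lowest adjusted p of the alternatives, 0.3325. The value in set B rested on replicate 1, the only kidney of that set with counts: without it the log2 change was -4.15 (adjusted p = 0.395).

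The other hosts were sparser still. Snhg1, at chr19:8723475-8726443 on the plus strand, had 14 counts in set A replicate 4, 18 and 22 in set B replicates 1 and 2, and 0 elsewhere. Snhg12, at chr4:132308623-132311024 on the plus strand, had 15 counts in control replicate 3 and 20 in each of set A replicates 1 and 4. Snhg5, at chr9:88521050-88522929 on the minus strand, had 31 counts in set A replicate 1 only. None of the 3 passed the filter, each had counts in at most 2 kidneys of a group, and no fold is given for them. In the exact permutation tests of CPM, 21 over the 7 RNAs with any count, their p-values lay between 0.429 and 1.0.

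The imprinted RNAs were at or near 0. H19, at chr7:142575529-142578143 on the minus strand, had no count in any of the 12 kidneys; as values of 1 to 3 counts are nearly missing from the table, no upper limit is given for it. Meg3, at chr12:109541001-109571726 on the plus strand, had 19 counts in set B replicate 2 and 0 in the other 11 kidneys, although its exons sum to 18089 bases. The neighbours Igf2, Dlk1, Rian and Mirg were sparse as well, but Slc22a18, also near H19, was at 29.5 CPM in control. Igf2, the growth factor gene that shares an enhancer with H19, had 30 and 36 counts in control replicates 2 and 4 and 0 in the other kidneys. Dlk1, the protein-coding gene next to Meg3, had counts in 4 kidneys and at most 22, and Rian and Mirg, noncoding RNAs downstream of Meg3, were at 0 in all 12.

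**Figure D3:**
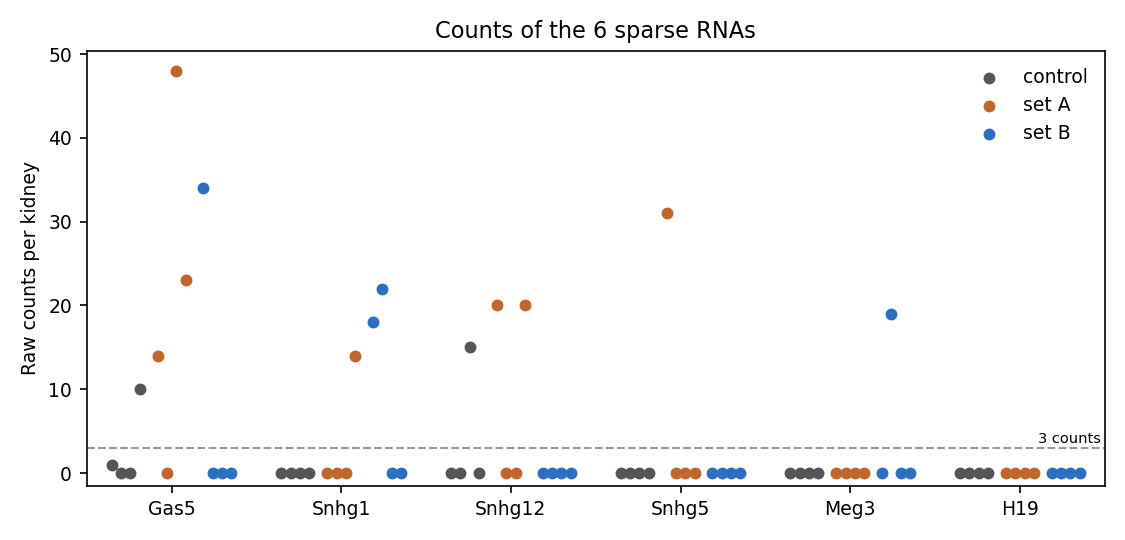
Raw counts of the 6 sparse RNAs, 1 point per kidney, with the floor of 3 counts as a dashed line. Of the 72 values 58 are 0, the others reach at most 48 counts, and H19 is at 0 throughout.

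The sparse values were clumped. Of the 72 values of these 6 RNAs 58 were 0, and of the 14 above 0 only 1 was below 10 counts. The whole table had the same form: 52.97% of its 281040 values were 0, 0.481% were from 1 to 3 counts and 7.63% from 16 to 63 counts. Kidneys at 0 and kidneys with 10 or more counts of the same gene therefore stood side by side within a group. A 0 here cannot be read as absence of the RNA, and how the table came to this form was not tested.

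Short genes were counted least often in this table, and 3 of the hosts have short summed exons. Over protein-coding genes with an exon length in the annotation, 23.3% of the 1303 genes under 1000 bases had a count in some kidney and 10.1% had one in all 12. Of the 7070 genes of 4000 bases or more 83.7% had a count in some kidney and 56.8% in all 12. The summed exons of Gas5 (851 bases) and Snhg1 (865) fall in the class under 1000 bases. Those of Snhg5 (1045) fall in the class from 1000 to 2000 bases, where 51.8% had a count in some kidney and 24.2% in all 12. Those of Snhg12 (2402), H19 (2460) and Meg3 (18089) are longer. For Snhg12 the exons of its forms merge into 1 block over the whole gene, and its single transcripts are 422 to 1538 bases long. The part of length in the low counts of the hosts was not tested.

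**Figure D4:**
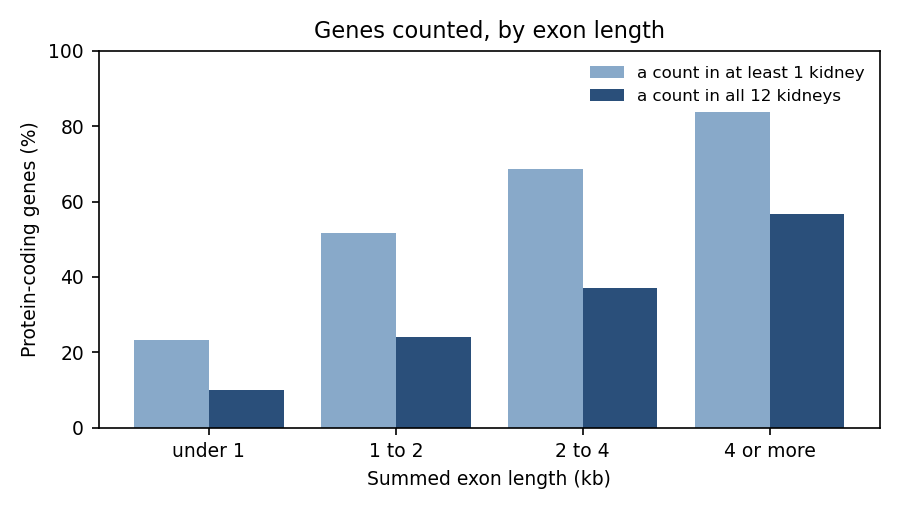
Share of protein-coding genes with a count in at least 1 kidney (light) and in all 12 kidneys (dark), by the summed length of their exons in kilobases. The light bars rise from 23.3% in the shortest class to 83.7% in the longest, and the dark bars from 10.1% to 56.8%.

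Most of the small RNAs annotated within these RNAs had no row, so nothing is known of their counts. Among those with a row, 1 inside Snhg1 and 3 inside Snhg12 had counts. The annotation places 28 small RNA genes in 6 of the 8 RNAs, and 11 of these entries had a row in the table, under 10 distinct symbols. Snord22, a box C/D snoRNA at chr19:8725866-8725991 that overlaps an annotated Snhg1 exon and is named because its counts stood out, was counted in all 12 kidneys. It had 901, 1760, 1882 and 1470 counts in control, 1670, 824, 2610 and 1296 in set A and 1754, 1188, 1317 and 794 in set B. Its host Snhg1 had 54 counts over all kidneys together. Inside Snhg12, Snord99 had counts in 5 kidneys (at most 52), Snora44 in 4 (at most 18) and Snora16a in 1 (35), and Snhg12 itself in 3.
Snord22: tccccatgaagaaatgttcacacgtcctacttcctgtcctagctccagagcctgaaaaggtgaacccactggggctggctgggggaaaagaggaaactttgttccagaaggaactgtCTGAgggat
The capitals mark the box D motif near its 3′ end, and the sequence is that of the GENCODE vM21 transcript, 126 bases long. The level of Snord22 was 49.3 ± 14.4 CPM in control and 56.1 ± 16.98 and 62.3 ± 9.40 in sets A and B, and the groups overlapped. Its log2 change was 0.16 in set A (adjusted p = 0.758) and 0.31 in set B (adjusted p = 0.440). Same-strand genes overlap 13.8% of the exon bases of Snhg1 and 19.6% of those of Snhg12, and HTSeq can leave out reads that lie over more than 1 gene; the setting used is not given in the sources used here.

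Noncoding RNAs as a class were thinly counted. By RefSeq biotype, matched by symbol for 21567 of the 23420 rows, 1524 rows were long noncoding RNAs, of which 158 (10.4%) had a count in some kidney and 3 had one in every kidney: Malat1, Neat1 and Mir22hg, the host of a microRNA. Of 18959 protein-coding rows 12873 (67.9%) had a count. Malat1 made up between 95.9% and 98.95% of all counts of long noncoding RNAs in a kidney. The share of all counts held by this class, 0.218% to 0.272% in control and 0.463% to 0.713% and 0.493% to 0.609% in sets A and B, was therefore nearly that of Malat1 alone.

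Of the 36 long noncoding RNAs tested, 2 were called in set A and 3 were called in set B, which was 5.56% and 8.33% of them, against 22.3% and 22.8% of all genes tested. Beside Malat1 these were D630029K05Rik in set A, and 1810019D21Rik and 4732471J01Rik in set B, all 3 named after their values were seen. D630029K05Rik had 170, 513, 214 and 648 counts in control against 0, 0, 53 and 0 in set A and 0, 40, 2 and 0 in set B. It fell by 5.21 on the log2 scale in set A (SE 1.68, adjusted p = 0.0302), and in set B its log2 change was -4.17 (adjusted p = 0.0709), with no overlap with control in either set. The other 2 rested on fewer kidneys. 1810019D21Rik had 67, 1, 43 and 193 counts in control and 0 in all kidneys of set B (adjusted p = 0.0423), and 4732471J01Rik had 0 in all controls and 40, 0, 159 and 32 in set B (adjusted p = 0.0443).

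Genes of the machinery around these RNAs were taken from 9 lists. Over all genes tested the median log2 change was -0.02 in each set. By edgeR 10.5% were higher and 11.7% lower in set A, and 10.9% higher and 11.9% lower in set B. DESeq2 called more genes against control than edgeR did, 2967 of 11628 for set A and 3067 for set B. Its counts within a list are to be read against these totals. Between the sets 0 of the 120 listed genes tested passed in edgeR or DESeq2, with 2 at an unadjusted edgeR p below 0.05. Of the protein-coding snoRNA hosts all 12 were tested, with 5 higher and 2 lower in set A, 5 higher and 3 lower in set B, and a median of 0.51 and 0.60. Rpl13a, a protein of the large ribosomal subunit, was at 478.8 ± 38.4 CPM in control and rose 1.65-fold in set A (adjusted p = 3.01e-05) and 1.64-fold in set B (adjusted p = 3.73e-05). Rpl3, another, rose 1.59-fold and 1.72-fold. Eif4a2, a helicase of translation initiation, fell by 0.78 (adjusted p = 5.82e-05) and by 0.93 (adjusted p = 8.03e-06) on the log2 scale. Ribosomal protein genes have many processed copies, so their counts are uncertain where reads could be split. The other noncoding snoRNA hosts resembled the hosts above: of 9 with a row, 4 were at 0 in all kidneys and 1, Snhg11, was tested. It had 86, 181, 134 and 247 counts in control, 20, 0, 1 and 34 in set A and 62, 58, 75 and 0 in set B, with no overlap with control, but did not pass (adjusted p = 0.179 and 0.665).

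Proteins that bind snoRNAs or help assemble them had 3 of 17 tested members called in each set, all higher, with medians of 0.55 and 0.53. Nop58, a core protein of box C/D particles, was at 20.1 ± 4.23 CPM in control and 56.5 ± 18.3 and 59.7 ± 4.34 in sets A and B, and rose 2.77-fold (adjusted p = 8.88e-05) and 2.93-fold (adjusted p = 4.98e-05). Nop56, its partner and itself a snoRNA host, rose 2.45-fold and 2.78-fold. Ruvbl2, a helicase of particle assembly, rose 2.16-fold in set A (adjusted p = 0.00108) and 1.69-fold in set B (adjusted p = 0.0193). Of the factors of nonsense-mediated decay, the pathway that degrades spliced host RNAs, 1 of 18 was called in each set, higher in both, with a median of 0.24 in both. These were Rbm8a, of the exon junction complex, in set A (1.81-fold, adjusted p = 0.0242) and Smg9, of the kinase complex that acts on Upf1, in set B (1.77-fold, adjusted p = 0.0390). DESeq2 called 2 of the 18 in each set.

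Of 20 paraspeckle proteins, those that assemble on Neat1, 5 were higher and 1 lower in set A, and 7 were called in set B, all higher, with medians of 0.20 and 0.29. Rbm3, a cold-inducible RNA-binding protein, was at 4.96 ± 1.79 CPM in control and 30.8 ± 3.57 and 45.5 ± 13.0 in sets A and B, and rose 6.07-fold (adjusted p = 2.32e-06) and 8.92-fold (adjusted p = 2.75e-07). The other changes were smaller. Sfpq, a core protein of the body, rose 1.36-fold (adjusted p = 0.00804) and 1.54-fold (adjusted p = 0.000442), and Smarca4, a chromatin remodeller, rose 1.59-fold (adjusted p = 0.00013) and 1.67-fold (adjusted p = 4.73e-05). Of 21 nuclear speckle proteins, the bodies in which Malat1 resides, 4 were called in set A and 6 in set B, all higher, with medians of 0.30 and 0.32. Srsf3, a splicing factor, rose 1.86-fold (adjusted p = 0.00518) and 2.14-fold (adjusted p = 0.000921), and Pnn, Srsf5 and U2af1 rose between 1.37-fold and 1.54-fold. DESeq2 called 7 of the 21 in set A and 8 in set B.

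Few of the imprinted genes and other noncoding RNAs could be tested, and some of those tested were at 0 in up to 7 kidneys. By edgeR 22.3% (set A) and 22.8% (set B) of all genes were called. With so few genes tested, a lower share than this cannot be shown for either list. Of 28 imprinted genes 8 were at 0 in all kidneys and 10 were tested, with medians of -0.29 and -0.46, and Slc22a18, a transporter near H19 that is expressed from the maternal chromosome, was the only one called by edgeR in either set; DESeq2 called 1 of the 10 in set A and 2 in set B. Slc22a18 was at 29.5 ± 7.52 CPM in control and 5.04 ± 1.72 and 4.09 ± 2.94 in sets A and B, and fell by 2.57 (adjusted p = 0.00365) and 2.86 (adjusted p = 0.00168) on the log2 scale. Of 23 other long noncoding RNAs 10 were at 0 in all kidneys and 6 were tested; 0 were called by edgeR or DESeq2 in either set, with 0 and 1 at an unadjusted edgeR p below 0.05, and their medians were -0.46 and -0.16.

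Among regulators known to act on the 8 RNAs, such as transcription factors and RNA-binding proteins, 4 of 17 tested were higher and 1 lower in set A, and 6 higher and 2 lower in set B, with medians of 0.24 and 0.11. Myc, a transcription factor that drives ribosome production, rose from 4.93 ± 1.96 CPM to 58.5 ± 7.38 in set A (11.8-fold, adjusted p = 2.01e-08) and 50.4 ± 10.5 in set B (10.2-fold, adjusted p = 4.16e-08). Igf2bp2, an RNA-binding protein, rose 5.45-fold and 6.03-fold. Mtor, the kinase that controls translation of host RNAs such as Gas5, fell by 1.37 (adjusted p = 2.18e-06) and 1.31 (adjusted p = 3.67e-06) on the log2 scale. Epas1, a hypoxia-inducible factor, fell by 0.72 in set B (adjusted p = 0.00081) and was at -0.37 in set A (adjusted p = 0.0685); its difference between the sets did not pass (adjusted p = 0.941).

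**Figure D5:**
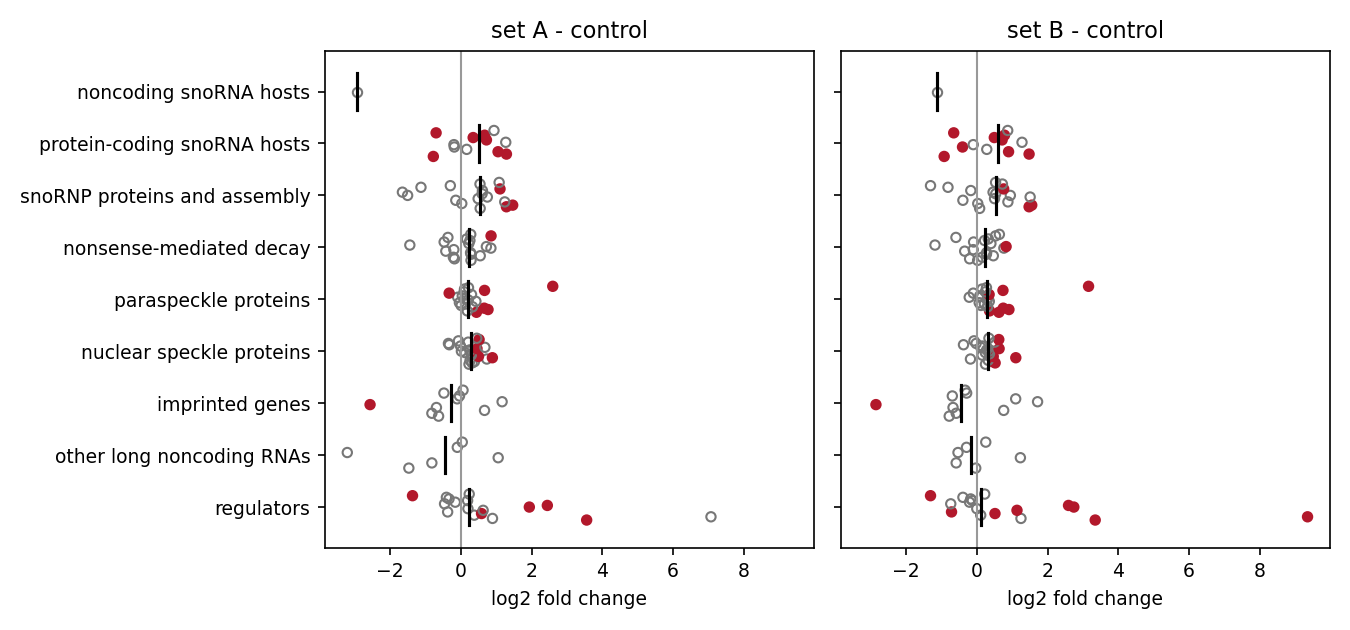
Log2 fold changes from edgeR for the tested genes of the 9 lists, in set A (left) and set B (right) against control. Each circle is a gene, filled where its adjusted p was below 0.05, and the vertical black lines are list medians, which lie at 0.51 and 0.60 for the protein-coding snoRNA hosts and at -0.29 and -0.46 for the imprinted genes.

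The genes most like Malat1, Neat1 and Gas5 were taken by the mean absolute difference over 12 kidneys between log2 CPM centred on each gene's control mean, among 8513 genes whose mean log2 CPM reached 1. Nearest to Malat1 were Bcl2l1, which encodes an inhibitor of apoptosis (0.111), Spryd3 (0.121) and Camk2d, a calcium-dependent kinase (0.121). Nearest to Neat1 were Cep85, a centrosome protein (0.305), Ssu72, a phosphatase of RNA polymerase II (0.325), and Zc3h7a (0.333). Nearest to Gas5 were Apba1 (1.03), Mir23b (1.04) and Wdr36 (1.08), at about the distance of a log2 unit, and genes at its own lower level were not compared. Bcl2l1 was at 151.1 ± 10.4 CPM in control and 332.4 ± 63.9 and 330.1 ± 33.8 in sets A and B.

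Markers of some kidney cell types moved with the groups as well. Summed over 7 markers of the proximal tubule, the level was 7006 to 7783 CPM in control and 764.2 to 1399 and 447.8 to 1458 in sets A and B, and all 7 fell in each set. The 8 markers of stroma and mural cells summed to 634.4 to 887.8 CPM in control and 1541 to 4128 and 1866 to 3511 in sets A and B, and 4 of the 6 tested rose in each set, with Lum at 0 throughout. Markers of dividing cells summed to 8.01 to 10.4 CPM in control and 24.0 to 31.2 and 24.8 to 40.3 in sets A and B, and both of those tested rose in each set. Those of other nephron segments summed to 2421 to 2831, 1072 to 1392 and 973.4 to 1909 CPM, with 2 of 7 tested lower (set A) and 1 of 7 lower (set B). Leukocyte markers summed to 45.8 to 65.2, 9.55 to 26.2 and 12.1 to 34.0 CPM, with 2 of 4 tested lower in each set and S100a8 at 0 throughout. Those of endothelium overlapped, at 167.2 to 239.7, 131.4 to 250.2 and 101.6 to 196.2 CPM, and 1 of 6 tested was called, lower in set B. The part of these markers' cells in the rise of Malat1 was not tested, and in whole kidney fewer cells of a type and less RNA per cell cannot be told apart. Markers of fat, adrenal tissue, skeletal muscle and red blood cells summed to at most 5.38 CPM in any kidney, with Adipoq, Hba-a1 and Ckm at 0 throughout.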

How the data were processed

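The authors prepared stranded poly(A) mRNA libraries from 12 kidneys, sequenced single reads, and used STAR for mapping to mm10 and HTSeq for counting reads in genes; versions, annotation release, strand setting and any duplicate removal are not given in the sources used here. The deposited table gives whole-number counts, not normalized, for 23420 genes; whether they were filtered before deposit is not given in the sources used here, and values of 1 to 3 counts are nearly missing. The members and lists were chosen with earlier results of these data known.

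Counts were tested in edgeR 4.0.16 (R 4.3.3) with its default filter (minimum count 10, minimum total 15), which kept 11664 genes, TMM scaling and a quasi-likelihood F-test of a fit over 3 groups of 4 kidneys, two-sided, with Benjamini-Hochberg adjustment over all genes tested and a threshold of 0.05. CPM used total counts, between 15367342 and 44793350 per kidney. Single genes and the Neat1 to Malat1 ratio were compared with exact permutation tests in SciPy 1.17.1. Likeness used log2 CPM with a prior count of 2. Positions, exon lengths and sequences came from GENCODE vM21, without transcripts of retained introns, and biotypes from RefSeq. The procedure was tested on simulated data.

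The genes named are the 8 members, per list up to 4 genes with the smallest adjusted p among those called with no overlap between groups, Igf2, Dlk1, Rian and Mirg, and the 3 genes nearest to each tested member; exceptions are named as such or close a count. 1 gene that this rule names is not reported here. Alternatives were RLE size factors, library size alone, no filter, more than 1 CPM in at least 4 kidneys, DESeq2 1.42.0, limma-trend (limma 3.58.1), a fit of 2 groups at a time, a block for the replicate number, and each kidney left out.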

Additional observations from a re-analysis of the deposited data

Results flagged for a closer look

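In 112 groups of 4 kidneys, over the 8 RNAs, the genes named by rule and the Neat1 to Malat1 ratio, a kidney was picked out where its gap to the next relative to the group's range passed the 95% critical value of Dixon's test. In all 9 were picked out. In 7 of these the kidney was the only one of its group with counts, so that it is picked out by construction: Gas5 at 1.14 CPM in set B replicate 1, Snhg1 at 0.833 CPM in set A replicate 4, Snhg12 at 0.560 CPM in control replicate 3, Snhg5 at 0.991 CPM in set A replicate 1, Meg3 at 1.18 CPM in set B replicate 2, and Dlk1 at 0.638 CPM in control replicate 1 and 0.234 CPM in set B replicate 1. Among groups with counts in more kidneys, where chance picks out about 1 in 20, there were 2. Wdr36 was at 29.8 CPM in set B replicate 1 and between 9.37 and 11.1 CPM in the other 3 kidneys of the set. The log2 ratio of Neat1 to Malat1 was -7.63 in set A replicate 3 and between -8.59 and -8.43 in the other 3.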

How the results depend on the processing

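Under each of the 20 alternatives Malat1 was the only one of the 8 RNAs called against control, and none was called between the sets; without the filter on low counts 7 were tested. Its log2 change was 1.004 to 1.27 (set A) and 1.11 to 1.22 (set B), and that of Neat1 0.40 to 0.94 and 0.44 to 1.01, never past the threshold. Over all genes 2142 to 2967 were called for set A and 2213 to 3067 for set B.

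Between the sets the count of 1 gene (587 at an unadjusted p below 0.05) became 27 with DESeq2, 6 without the filter, 0 with limma-trend (683 unadjusted) and 0 with only the 2 groups compared (336 unadjusted). With each kidney left out it lay between 0 and 7 (538 to 780 unadjusted), being 3 without set B replicate 2 and 7 without set B replicate 4. Values near 0 changed sign between the sets. Malat1 was at -6.0e-05 with the CPM filter, at -0.0042 with only the 2 groups, at -0.0096, -0.0095 and -0.0096 without control replicates 1, 2 and 4, at -0.060, -0.079 and -0.012 without set A replicates 1, 2 and 3, and at -7.5e-05, -0.028 and -0.030 without set B replicates 1, 2 and 4. Neat1 was at -0.044 and -0.091 without set A replicates 1 and 2 and at -0.20 without set B replicate 1. The log2 ratio of Neat1 to Malat1, at 0.047 between the sets, lay between -0.18 and 0.26 with a kidney left out, at -0.18 without set B replicate 1 and at -0.0062, -0.058 and -0.0061 without set A replicates 1, 2 and 4. Gas5 in set B against control was at -4.15 without set B replicate 1, the only kidney of that set with counts, and at most 3.91 with any other kidney left out. With a kidney left out the highest values between the sets were 0.16 for Malat1 and 0.32 for Neat1.

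Same-numbered kidneys share only a number: over 12 pairs of different groups their deviations correlated between -0.055 and 0.045. With the replicate number as a block, 2491, 2531 and 1 genes were called and the calls of the 8 RNAs did not change. The default filter on low counts left 5 of the 8 RNAs out of the test, and H19, at 0 in every kidney, was tested under no alternative.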
